A study of Mus musculus with 15 samples.

Results

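The genes described here are the 6 sarcomeric myosin heavy chain isoforms Myh7, Myh2, Myh1, Myh4, Myh3 and Myh8, chosen by gene symbol in the deposited table of tag counts. All 6 were among its 13602 gene symbols, and 5 passed the filter on low counts, Myh8 being the exception. The libraries came from gastrocnemius, a calf muscle of mainly fast fibres, of male mice: 8 wild-type controls with floxed Cpt1b, and 7 mice lacking Cpt1b in skeletal muscle only (knockouts). Cpt1b is the muscle enzyme that passes long-chain fatty acids into mitochondria. The titles and series text give chow feeding for 12 to 14 weeks, whereas all 15 diet fields read 45% HFD. Neither age nor the Cre driver is given in the sources used here. Mice and libraries are equal in number in the labels. Each library held 8334436 to 19397255 SAGE tags, short sequences counted once per transcript near its 3′ end, so that levels of different genes do not scale with transcript length. Fast-muscle markers were abundant, with the light chain Mylpf at 75233 ± 16297 CPM in controls (counts per megatag of the TMM-scaled library, SD, n = 8) and 63103 ± 16708 CPM in knockouts. The targeted gene Cpt1b stood at 7.64 ± 3.17 CPM in the control and 3.79 ± 1.64 CPM in the knockout libraries (SD). Its levels overlapped between the groups (4.44 to 13.1 CPM in controls, 1.10 to 6.46 CPM in knockouts). Tested alone, its log2 CPM differed by the two-sided exact permutation test (unadjusted p = 0.00389). By edgeR over all tested genes Cpt1b did not pass (log2 fold change -1.03 ± 0.31 SE, adjusted p = 0.103). It passed in 4 of 22 alternative settings. Control replicate 7 and knockout replicate 4 lay farthest from the rest on the leading principal component of all tested genes and were also the deepest libraries of their groups.

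Myosin heavy chain is the motor protein of the thick filament, and the isoform a fibre makes largely sets how fast it shortens. Adult mouse limb fibres use Myh7 (slow, type I), Myh2 (IIa, fast and oxidative), Myh1 (IIx) or Myh4 (IIb, the fastest and most glycolytic), and many fibres hold more than 1 of them. Myh3 (embryonic) and Myh8 (perinatal) serve developing muscle and return during regeneration. In whole muscle RNA, fewer fibres of a type and less of its RNA per fibre cannot be told apart.

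Because these proteins are close relatives, the tags that tell them apart are shown first. Each is the 27 bases from the CATG site nearest the 3′ end of the longest coding transcript in GENCODE M21 (GRCm38). CATG is the usual anchoring site of SAGE, but the labels do not name the enzyme, so these tags are predictions. Capitals mark CATG.
Myh7: CATGaggaagagtgagcggcgcatcaa
Myh2: CATGcgcctgtgtgattctattccatc
Myh1: CATGagagaagagtgaaagaactcact
Myh4: CATGgagcagaccgtgaaggacctgca
Myh3: CATGcaataaagtttgccttgtttcaa
Myh8: CATGaaagaagagtaaaggaacttacc

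The Myh2 tag (chromosome 11, 67197446 to 67197472, exon 40 of 40) and the Myh3 tag (67102260 to 67102286, exon 41 of 41) lie in the 3′ untranslated region. The other 4 lie in coding sequence: Myh1 at 67222219 to 67222245 (exon 38 of 40), Myh4 at 67258897 to 67258923 (exon 36 of 39), Myh8 at 67306226 to 67306252 (exon 38 of 40) and Myh7 on chromosome 14 at 54972704 to 54972730 (exon 38 of 41). The Myh2 tag differed from every other sarcomeric myosin transcript by at least 10 bases, the Myh3 tag by at least 9, and the Myh1 and Myh8 tags by at least 5. The Myh4 tag recurred without a mismatch inside Myh2, at the second CATG from the 3′ end (583 bases from the end of a transcript of 6083), and came within 2 mismatches of Myh1, Myh3, Myh8 and Myh13. Part of the tags counted for Myh4 could therefore derive from Myh2 transcripts cut at the inner site, and how the authors assigned such tags is not given in the sources used here. For Myh7 the tag lay 1 mismatch from Myh6, the heart alpha isoform. Of the annotated coding transcripts, 2 of 6 for Myh7, 3 of 4 for Myh1 and 1 of 2 for Myh8 give the printed tag. For Myh2, Myh4 and Myh3 all of them do. Annotated antisense genes overlap the tags of Myh2 (9430073C21Rik), Myh1 (Myhas) and Myh7 (Mhrt), and whether counting used strand is not given.

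The order of the isoforms was nearly the same in every library. Myh4 was the most abundant in 14 of 15 libraries, followed by Myh2, Myh1 and Myh7. The exception was knockout replicate 4, where Myh2 exceeded Myh4, and in knockout replicate 6 Myh3 exceeded Myh7. Summed over the 6 genes there were 23259 to 110597 tags per library, or 0.278% to 0.587% of all tags. The sum averaged 3490 CPM (SD 671) over the 8 controls and 3873 CPM (SD 898) over the 7 knockouts. Below, a share is an isoform's percentage of this sum in the same library, and Wilson 95% intervals of single shares were at most 1.15 percentage points wide (counting error only).

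The knockout libraries held a larger mean share of Myh2 and Myh1 and a smaller mean share of Myh4, with overlap between the groups. The shares of Myh2 and Myh4 differed at the unadjusted level, but not after adjustment over the 9 shares and ratios tested. By edgeR's quasi-likelihood test over all 11062 genes tested, 0 of the 5 tested isoforms passed an adjusted p of 0.05, against 2.17% of all genes (1.67% higher, 0.497% lower). DESeq2 also called none of them. At an unadjusted p under 0.05 edgeR gave 1 of 5, Myh2, against 13.6% of all genes.

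**Figure D1:**
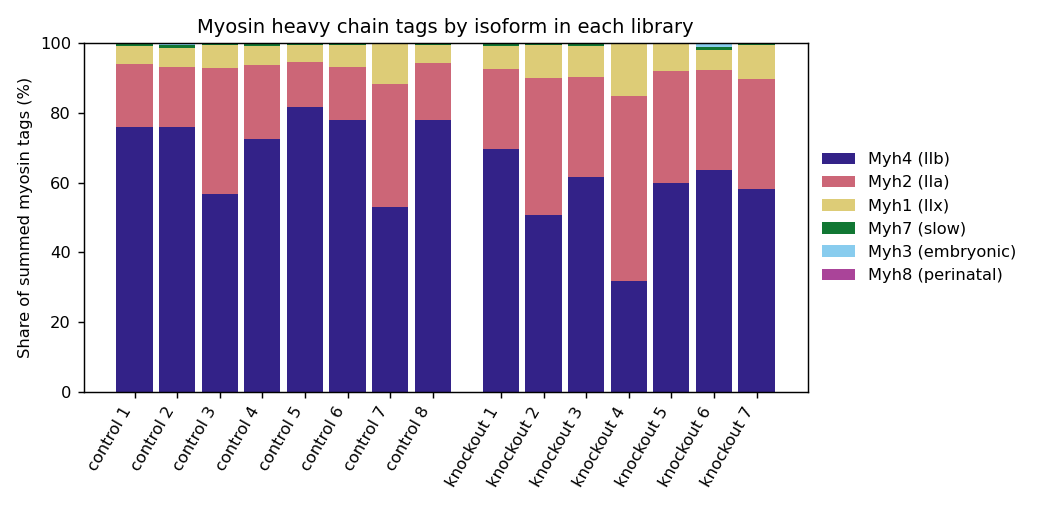
Stacked bars give each isoform's share (%) of the summed myosin heavy chain tags in each of the 8 control and 7 knockout libraries. Myh4 takes 53.1% to 81.7% in controls and 31.9% to 69.6% in knockouts, and Myh2 takes most of the remainder.

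Myh2, the IIa motor, took 17.98%, 17.2%, 36.0%, 21.2%, 12.9%, 15.1%, 35.3% and 16.4% of the myosin tags in control replicates 1 to 8. In knockout replicates 1 to 7 it took 23.0%, 39.2%, 28.7%, 53.0%, 31.9%, 28.8% and 31.6%. All 7 knockouts lay above the control median of 17.6%, and control replicates 3 and 7 lay within the knockout range. The mean share was 21.5% ± 9.05 over the 8 controls and 33.8% ± 9.78 over the 7 knockouts (SD). The difference of 12.3 percentage points had an exact permutation p of 0.0239 (two-sided) and an adjusted p of 0.0678 among the 9 shares and ratios. As a level, Myh2 stood at 786 ± 487 CPM in the control and 1364 ± 698 CPM in the knockout libraries (log2 fold change 0.79 ± 0.34 SE, edgeR adjusted p = 0.307). The Myh2 log2 fold change was 1.08 without control replicate 7 (edgeR adjusted p = 0.0447), 0.52 without knockout replicate 4 (0.572) and 0.79 without that pair (0.079).

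Myh4, the IIb motor, took 76.1%, 75.9%, 56.8%, 72.5%, 81.7%, 78.0%, 53.1% and 78.1% in control replicates 1 to 8. Knockout replicates 1 to 7 had 69.6%, 50.9%, 61.5%, 31.9%, 60.01%, 63.6% and 58.2%. All 7 knockouts lay below the control median, with control replicates 3 and 7 again inside the knockout range. The mean was 71.5% ± 10.6 in controls and 56.5% ± 12.3 in knockouts (difference -15.0 percentage points, exact permutation p = 0.0216, adjusted p = 0.0678). The CPM level moved less than the share: 2449 ± 271 in controls and 2118 ± 410 in knockouts, with a log2 fold change of -0.21 ± 0.13 (edgeR adjusted p = 0.507). The shares sum to 100%, so the Myh2 and Myh4 results are not independent of each other.

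Myh1, the IIx motor, had a mean share of 6.44% ± 2.14 in controls and 9.07% ± 2.98 in knockouts. Control replicate 7 held 11.5%, and the other controls lay between 5.02% and 6.72%. The knockouts ran from 5.69% in replicate 6 to 14.9% in replicate 4, and 6 of 7 lay above the control median of 5.70%. The difference of 2.64 percentage points did not pass (exact permutation p = 0.0612, adjusted p = 0.11). In CPM the level was 236 ± 142 in controls and 369 ± 204 in knockouts (log2 fold change 0.64 ± 0.33 SE, edgeR adjusted p = 0.401). The Myh1 log2 fold change was 0.98 without control replicate 7 (edgeR adjusted p = 0.0414), 0.34 without knockout replicate 4 (0.7235) and 0.67 without both (0.0569).

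**Figure D2:**
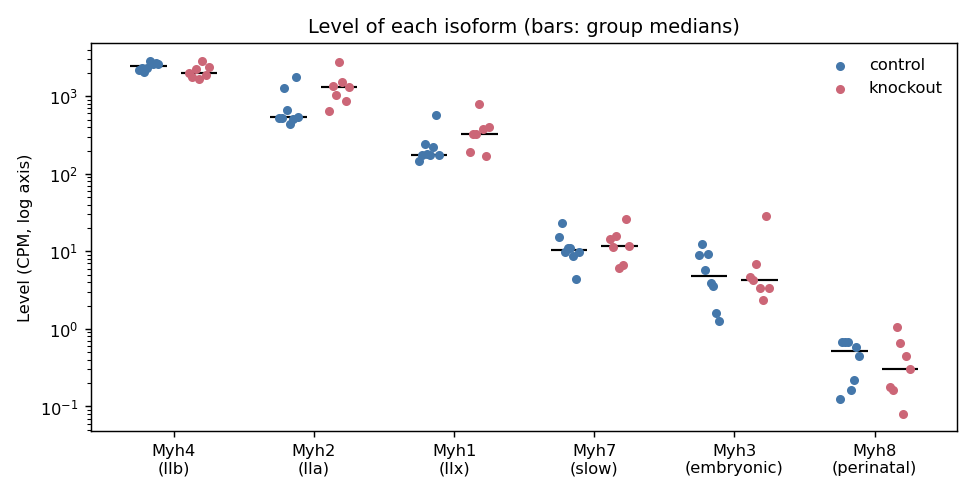
Points give the level of each isoform in each library (CPM, log axis) and bars the group medians. Myh2 and Myh1 have higher medians in knockouts (1310 against 536 CPM and 330 against 177 CPM), and all isoforms overlap between the groups.

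Single libraries determined on which side of the threshold these shares fell. Leaving out control replicate 3, control replicate 7, knockout replicate 1 or knockout replicate 6 brought the shares of Myh2 and Myh4 past an adjusted p of 0.05. Their adjusted p was 0.0332 in both without control replicate 3, 0.0168 and 0.0144 without control replicate 7, 0.0435 in both without knockout replicate 1, and 0.0492 in both without knockout replicate 6. Without knockout replicate 4 the differences were 9.06 and -10.9 percentage points and the adjusted p was 0.151 for both. Without control replicate 7 and knockout replicate 4 together, a pair picked once the data had been seen, they were 11.0 and -13.5 percentage points (adjusted p = 0.0304 and 0.0262). The share of Myh1 passed without control replicate 7 (adjusted p = 0.0144), without knockout replicate 6 (0.0492) and without that pair (0.0262).

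Ratios to Myh4 give the same comparison without the other isoforms in the denominator. The log2 ratio of Myh2 to Myh4 was -1.82 ± 0.78 in controls and -0.75 ± 0.75 in knockouts (difference 1.06, exact permutation p = 0.0188, adjusted p = 0.0678). That of Myh1 to Myh4 was -3.51 ± 0.60 in controls and -2.66 ± 0.79 in knockouts (difference 0.85, exact permutation p = 0.0301, adjusted p = 0.0678). In both ratios every knockout lay above the control median. For Myh7 to Myh4 the difference of 0.37 was smaller than the SD within either group (exact permutation p = 0.392, adjusted p = 0.588). The ratio of Myh2 to Myh4 passed without control replicate 3 (adjusted p = 0.0332). It passed, as did that of Myh1 to Myh4, without control replicate 7 (0.0144), knockout replicate 1 (0.0435) or knockout replicate 6 (0.0492), and neither did without knockout replicate 4 (0.151).

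**Figure D3:**
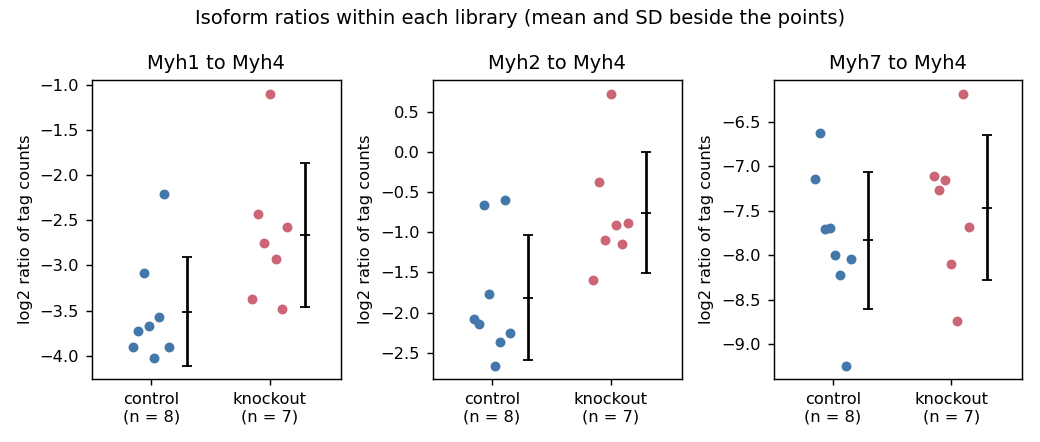
Points give the log2 ratio of tag counts to Myh4 in each library, with the group mean and SD beside them. The Myh2 ratio is above 0 only in knockout replicate 4 (0.73), and control replicates 3 and 7 lie among the knockouts.

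Myh7, the slow motor, was a trace in both groups. Its level was 4.40 to 23.6 CPM in controls (median 10.4) and 6.10 to 26.2 CPM in knockouts (median 11.7), from 82 to 245 tags per library. The share was 0.361% ± 0.205 in controls against 0.382% ± 0.259 in knockouts (exact permutation p = 0.862). The log2 fold change of 0.16 ± 0.32 SE did not pass (edgeR adjusted p = 0.832), and it was -0.10 without knockout replicate 6. A difference of this size in Myh7 was not detectable with this error.

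The developmental isoforms were low in both groups. Myh3 ran from 1.25 to 12.5 CPM in controls and from 2.34 to 6.85 CPM in 6 knockouts, and reached 28.7 CPM (258 tags) in knockout replicate 6. Its log2 fold change was 0.39 ± 0.55 SE (edgeR adjusted p = 0.757), and -0.48 without that library. Knockout replicate 6 also had the highest Myh7 level of all libraries. Myh8 had 1 to 11 tags per library in controls and 1 to 14 in knockouts, a mean of 5.75 in controls and 5.71 in knockouts. Fitted without the low-count filter, its log2 fold change was -0.10 ± 0.49 SE (edgeR adjusted p = 0.938).

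Across libraries of the same group Myh2 varied with Myh1, and Myh7 with Myh3. With group means taken out of log2 CPM, Myh2 and Myh1 varied together over the 15 libraries (Pearson r = 0.89, permutation p = 0.0001, adjusted p = 0.0006; Spearman rho = 0.86, permutation p = 0.0004, adjusted p = 0.002; 10 pairs tested). Without control replicate 7 and knockout replicate 4 the r was 0.72. Myh7 and Myh3 likewise moved together (r = 0.82, permutation p = 0.00012, adjusted p = 0.0006; rho = 0.83, permutation p = 0.00036, adjusted p = 0.002), with r = 0.71 without control replicate 7 and knockout replicate 6. Myh7 ran against Myh1 (r = -0.82, permutation p = 0.00068, adjusted p = 0.00227; rho = -0.79, permutation p = 0.0012, adjusted p = 0.004) and against Myh2 (r = -0.73, permutation p = 0.0032, adjusted p = 0.008; rho = -0.69, permutation p = 0.0079, adjusted p = 0.0198). Without control replicate 7 and knockout replicate 6 these were -0.68 and -0.61. No pair with Myh4 passed the adjusted threshold: with Myh2 its r was -0.15 (permutation p = 0.61, adjusted p = 0.678; rho = -0.14, permutation p = 0.64, adjusted p = 0.65), and -0.08 without control replicate 7 and knockout replicate 4.

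The variation of Myh2, Myh1 and Myh7 ran along the leading principal component of all tested genes, which held 44.6% of the variance between libraries. With group means taken out, the score on this component had an r over 15 libraries of -0.95 with Myh2, -0.93 with Myh1, 0.86 with Myh7 and 0.04 with Myh4. These values are descriptions, since the component is computed from the same libraries. Before group means were taken out, scores ran from -51.2 to 43.0 in controls and from -76.2 to 18.7 in knockouts. Whether the groups differ along the component was not tested. Sequencing depth moved along with the isoforms: the r with log depth over the 15 libraries was 0.82 for Myh1, 0.66 for Myh2, -0.70 for Myh7 and -0.05 for Myh4. The part of depth in the levels was not tested. Of 9935 other genes with a mean of at least 20 tags, 1176 (11.8%) followed Myh2 with r above 0.8 and 1121 (11.3%) ran against it below -0.8. For Myh4 only 5 genes followed that closely. Control replicate 7 (16238258 tags) and knockout replicate 4 (19397255 tags) stood at the end of the component where Myh2 and Myh1 are high. When the first surrogate variable was added to the fit, an alternative chosen with the data in view, Myh2 had a log2 fold change of 0.61 (edgeR adjusted p = 0.0188) and Myh1 of 0.41 (0.0366).

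**Figure D4:**
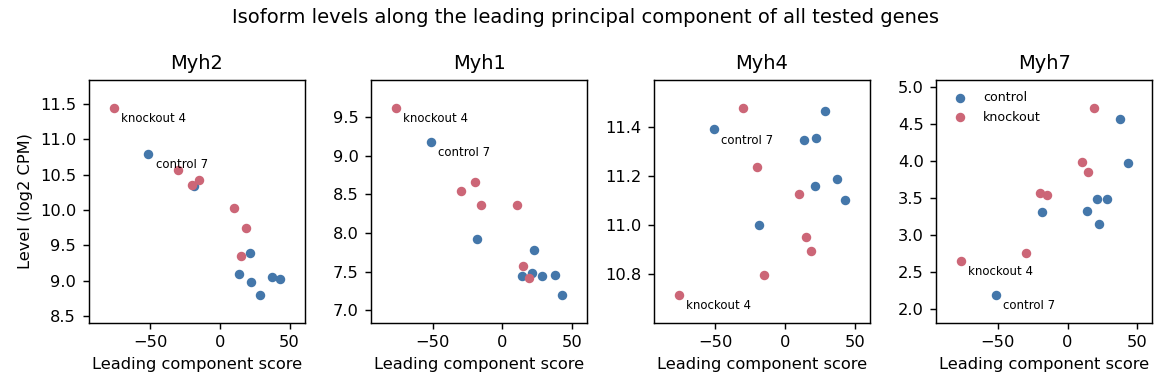
Points give the log2 CPM of Myh2, Myh1, Myh4 and Myh7 in each library against its score on the leading component of all tested genes. Myh2 and Myh1 are high where the score is low, with knockout replicate 4 at -76.2 and control replicate 7 at -51.2, and Myh4 shows no such course.

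The genes most like each adult isoform within groups were taken as the 3 with the highest r over the 15 libraries, as a description. For Myh2 they were Mdh1, the cytosolic malate dehydrogenase, the cell adhesion protein Nptn and the slit-diaphragm gene Nphs1 (r = 0.98 each, and 0.96, 0.97 and 0.96 without control replicate 7 and knockout replicate 4). For Myh1 they were Ankle2, the mitochondrial import chaperone Timm9 and the histone chaperone Nap1l1 (r = 0.96 each, and 0.86, 0.87 and 0.85 without those libraries). For Myh4 they were the coactivator Calcoco1 (0.86), Smarcd3, a chromatin remodelling subunit (0.82), and the Mediator subunit Med13 (0.82). For Myh7 they were 5730508B09Rik, Cables1 and the transcriptional repressor Mnt (0.95, 0.95 and 0.94).

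The 5 isoforms on chromosome 11 lie in 1 cluster on the plus strand (GRCm38): Myh3 at 67078300 to 67102291, Myh2 at 67171027 to 67197517, Myh1 at 67200052 to 67224575, Myh4 at 67238029 to 67260446 and Myh8 at 67277124 to 67308634. Myh7 lies apart, on chromosome 14 at 54970684 to 54994626, minus strand. The promoters of the 3 adult fast genes are shown as sequence, and a link to the variation across libraries was not tested. The 250 bases before each start come from RefSeq (GRCm38.p6, plus strand): chr11:67170777-67171026 for Myh2, chr11:67199852-67200101 for Myh1 and chr11:67237562-67237811 for Myh4. For Myh1 and Myh4 these RefSeq starts differ from the gene starts given above. Capitals mark the longest stretch that all 3 share, 20 bases.
Myh2: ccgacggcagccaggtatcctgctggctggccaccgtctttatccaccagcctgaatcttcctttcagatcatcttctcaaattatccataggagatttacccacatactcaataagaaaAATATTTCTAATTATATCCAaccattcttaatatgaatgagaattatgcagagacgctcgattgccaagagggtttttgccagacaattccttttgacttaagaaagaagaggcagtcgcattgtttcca
Myh1: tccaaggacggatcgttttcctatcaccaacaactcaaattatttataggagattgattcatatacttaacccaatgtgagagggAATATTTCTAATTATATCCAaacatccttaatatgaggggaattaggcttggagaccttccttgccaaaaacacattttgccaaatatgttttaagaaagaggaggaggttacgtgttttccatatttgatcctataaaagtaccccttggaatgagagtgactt
Myh4: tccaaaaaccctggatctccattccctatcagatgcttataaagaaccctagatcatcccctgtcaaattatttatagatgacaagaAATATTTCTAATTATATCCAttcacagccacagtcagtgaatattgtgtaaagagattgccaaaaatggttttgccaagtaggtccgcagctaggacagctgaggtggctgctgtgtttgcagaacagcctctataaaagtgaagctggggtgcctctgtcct

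Of 32851 promoter windows of this length, 3 hold the shared stretch on either strand, and these are the windows of Myh1, Myh2 and Myh4. It runs from 130 to 111 bases before the start in Myh2, 165 to 146 in Myh1 and 163 to 144 in Myh4. The Myh2 window therefore holds fewer bases after the stretch than those of Myh1 and Myh4. Bases past the Myh2 start were not searched, so a motif missing in Myh2 is missing from this window only. All motifs were searched on both strands. A match to the MEF2 motif stands in the Myh1 and Myh4 windows (2.92% of all windows have one), and Myh2 has none. TATAAA on either strand occurs in Myh1, where 1 of its 2 matches lies inside the MEF2 match, and in Myh4, with 1 of 3 likewise inside it (12.4% of all windows), but not in Myh2. The E-box CANNTG occurs in the Myh4 window alone of these 3 (66.2% of all windows). A CArG box was found in Myh4 (1.47% of all windows). Such matches describe letters in these windows and show no binding.

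Between Myh3 and Myh2 lies 2310065F04Rik (67112461 to 67120080, minus strand), a long noncoding RNA that RefSeq lists as linc-Myh and that is known from fast fibres. It was included for its position. Its level in control replicates 1 to 8 was 251, 248, 196, 169, 182, 201, 191 and 175 CPM. In knockout replicates 1 to 7 it was 128, 127, 132, 361, 155, 95.4 and 96.5 CPM. All knockouts but replicate 4 lay below every control, and knockout replicate 4 lay above them all. Over all libraries the log2 fold change was -0.36 ± 0.24 SE (edgeR adjusted p = 0.52), and without knockout replicate 4 it was -0.72 (adjusted p = 0.00738). On the other side of Myh3, the cytochrome oxidase assembly gene Sco1 stood at 59.3 ± 17.1 CPM in the control and 66.6 ± 15.1 CPM in the knockout libraries (edgeR adjusted p = 0.727).

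Other genes of the contractile and calcium-handling apparatus give the setting for the isoforms. The gene lists here and below were chosen with earlier results of these data known, so their counts are descriptions. Of 18 slow-twitch genes tested by edgeR, 4 rose, none fell, 15 lay above 0 and the median log2 fold change was 0.32. Over all 11062 genes tested, 1.67% rose, 0.497% fell, 5597 lay above 0 and 5465 below it, and the median was 0.0047. Atp2a2, the slow calcium pump, stood at 433 ± 121 CPM in the control and 776 ± 131 CPM in the knockout libraries (log2 0.84 ± 0.17 SE, edgeR adjusted p = 0.00897). Its inhibitor Pln rose by 1.18, the calcium buffer Casq2 by 0.80 and myoglobin, Mb, by 0.71 on the log2 scale. Atp2a2, Pln, Casq2 and Mb are not filament proteins. The slow filament genes did not pass: the light chain Myl2 had a log2 difference of 0.82 ± 0.28, the troponins Tnni1 and Tnnc1 0.72 ± 0.22 and 0.68 ± 0.25, and the light chain Myl3 0.06 ± 0.23 (edgeR adjusted p = 0.18, 0.107, 0.23 and 0.91). The troponin Tnnt1 had a difference of 0.30 ± 0.23 (edgeR adjusted p = 0.591). In the other direction, 3 of the 18 lay below 0, among them Csrp3 with -1.02 ± 0.31 SE (edgeR adjusted p = 0.112). Csrp3 and these light chains and troponins are named outside the rule for named genes and were chosen after their values were seen. The same holds for Mylpf above and Actn3, Atp2a1, Ppargc1a, Sox6 and the markers of other cells below. DESeq2 called 4 of the 18 slow-twitch genes higher and 1 lower. Over the 13602 genes fitted, counted before DESeq2's own filter on low counts, it called 310 higher and 145 lower. By edgeR the count of slow-twitch genes higher in knockouts was 2 when any 1 of controls 5, 6 and 8 or knockouts 2, 3 and 7 was left out. Over all genes, leaving out 1 library gave 161 to 465 calls. Casq2 lost its call when any 1 of controls 3, 5, 6 and 8 or knockouts 1, 2, 3, 6 and 7 was left out (adjusted p up to 0.085). Mb lost it without any 1 of the controls 1, 2, 4, 5, 6 and 8 or the knockouts 2, 3, 4 and 7 (up to 0.11).

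Of 18 fast-twitch genes 1 fell, 1 rose, 15 had a negative fold change (5465 of 11062 genes in all), and the median was -0.18 (0.0047 in all). Both directions together, 2.17% of all genes were called. By DESeq2 1 of the 18 rose and 2 fell. Tnnt3, the fast troponin T, fell from 3121 ± 338 to 1983 ± 305 CPM (log2 -0.65 ± 0.13 SE, edgeR adjusted p = 0.00629), with every knockout below every control, as 1.19% of all genes had their groups apart in either direction. Smtnl1, a smoothelin-like protein of fast fibres, rose from 15.3 ± 2.35 to 22.6 ± 3.73 CPM (adjusted p = 0.0296), also without overlap. The Smtnl1 call was lost when any 1 of controls 2, 4, 5 and 8 or knockouts 2, 3 and 7 was left out (adjusted p up to 0.0762). Actn3, the fast alpha-actinin, and the fast calcium pump Atp2a1 did not pass (log2 -0.21 ± 0.15 and -0.51 ± 0.24).

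**Figure D5:**
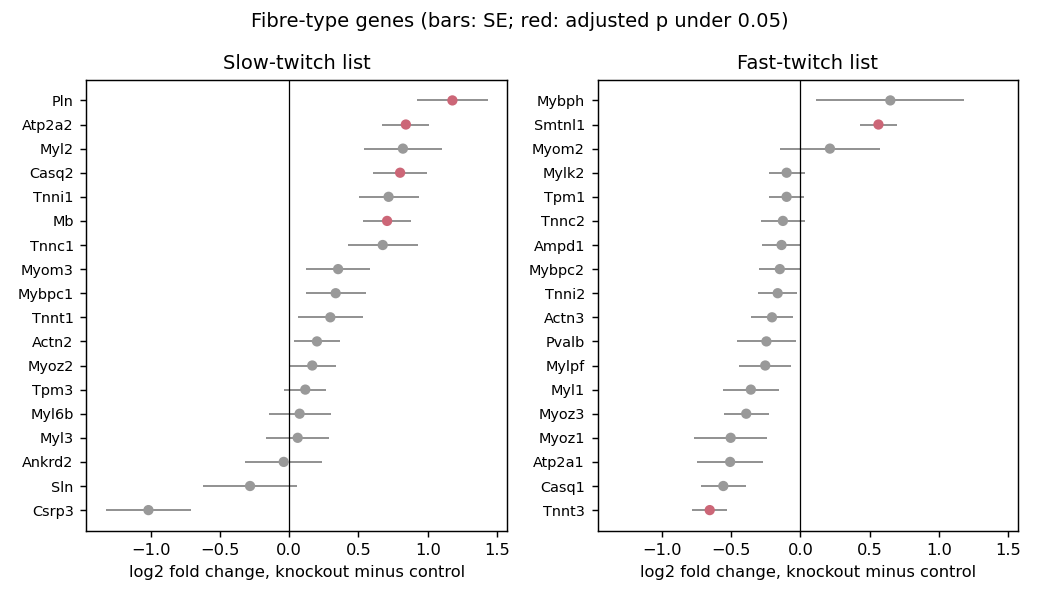
Points give the log2 fold change (knockout minus control) of each tested slow-twitch and fast-twitch gene, with SE bars, and red marks an adjusted p under 0.05. Most slow-twitch genes (15 of 18) lie right of 0 and most fast-twitch genes (15 of 18) left of it, with Pln (1.18) and Tnnt3 (-0.65) the called genes farthest out.

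Of 37 tested regulators of fibre type, 1 rose and 1 fell, against 2.17% called among all genes, with a median log2 fold change of 0.07. Esrrb, an oestrogen-related receptor, rose from 2.66 ± 0.89 to 5.37 ± 1.28 CPM (edgeR adjusted p = 0.0137). Rcan1, which restrains calcineurin and is itself a calcineurin target, fell from 250 ± 91.6 to 123 ± 39.9 CPM (adjusted p = 0.0305), a call lost when any 1 of controls 1, 2, 4 and 6 or knockouts 2, 4, 5 and 7 was left out (up to 0.0757). Without control replicate 7 the count was 3 higher and 2 lower, and without knockout replicate 6 it was 1 higher and 2 lower. Over all 10948 genes tested without control replicate 7, 311 were called higher and 154 lower. Fits without 1 library called 161 to 465 genes in all. Ppargc1a, the coactivator PGC-1 alpha, and Sox6, a repressor of slow fibre genes, did not pass (log2 0.75 ± 0.22 and -0.55 ± 0.17). Of 20 oxidative and glycolytic fibre markers, 4 rose and none fell (median 0.12), against 1.67% higher and 0.497% lower among all genes. With the surrogate variable in the fit 7 rose, and without control replicate 7 and knockout replicate 4 together 6 did. Over all genes, the fit with the surrogate variable called 419 of 11062 higher, and the fit without that pair 255 of 10975. Fabp3, which carries fatty acids in the cytosol, rose by 2.01, Ldhb, the lactate dehydrogenase subunit of oxidative fibres, by 1.196, the mitochondrial creatine kinase Ckmt2 by 0.73 and the succinate dehydrogenase subunit Sdhb by 0.82. Sdhb lost its call without knockout replicate 2 (adjusted p = 0.0537) or 5 (0.0504). With library size alone as the scaling, Sdhb (adjusted p = 0.0535), Mb (0.0657) and Smtnl1 (0.0507) lost their calls.

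Markers of other cells overlapped between the groups. Summed over 4 genes each, fibroblast markers ran from 1429 to 2996 CPM in controls and from 649 to 2342 CPM in knockouts, endothelial markers from 165 to 279 and 156 to 250 CPM, and tendon markers from 98.1 to 296 and 69.1 to 295 CPM. By edgeR 0 of the 11 tested genes of these 3 lists passed, against 2.17% of all genes. The median log2 fold change was -0.46 for fibroblast markers, with 3 of 4 below 0 (Col1a1 -1.03, edgeR adjusted p = 0.0863). For the 3 tested tendon markers it was -0.59, with 2 below 0 (Tnmd -0.74, edgeR adjusted p = 0.0918) and Fmod above 0 (0.07, adjusted p = 0.947). Adipocyte markers summed to 35.2 to 91.7 CPM in controls and 22.4 to 120.7 CPM in knockouts. Of these 4 genes 1 fell, the adipokine Lep, from 4.55 ± 2.78 to 1.27 ± 0.93 CPM (log2 -1.83 ± 0.43 SE, edgeR adjusted p = 0.0295). Among all genes 0.497% fell. The part of these other cells in the shares of the isoforms was not tested.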

How the data were processed

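SAGE libraries were made from 500 ng of muscle RNA and sequenced on a SOLiD instrument, per the labels' protocols. The authors deposited raw tag counts per gene symbol for 15 libraries and a table of signal values, which equal those counts divided by 1 factor per library (largest relative deviation 5.42e-10 over 13601 matched symbols) and were not tested. DESeq2 and the builds mm10 and GRCm38.p1 are named in the submitters' processing notes. The aligner, the tag-to-gene rule and strand use are not given in the sources used here. From the counts, 360 blank lines holding 0 tags were dropped, and 2540 genes were removed by filterByExpr (minimum count 10).

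Groups were compared over all 11062 remaining genes with edgeR 4.0.16 (TMM, robust quasi-likelihood test, Benjamini-Hochberg adjustment, threshold 0.05) in R 4.3.3, tested on simulated data. CPM uses TMM-scaled library sizes, and correlations use log2 CPM with a prior count of 2. Shares and log2 ratios (0.5 added to each count) were compared by a two-sided exact permutation test of group means over all 6435 splits, adjusted over 9 measures (scipy 1.17.1). Alternatives were other scalings, no filter, DESeq2 1.42.0, a replicate block, leaving out each library, medians and another denominator. Further alternatives, a surrogate variable (sva 3.50.0) and leaving out a pair of libraries, were added after the data were examined. The isoforms and gene lists were chosen with earlier results of these data known. Named genes were the 6 isoforms, Cpt1b, in each list up to 4 called genes by smallest adjusted p (with no call, the 1 gene of smallest p), and the 3 genes most correlated with each adult isoform. Outside this rule, 2310065F04Rik and Sco1 were named for their position and a few list and marker genes after their values were seen. The summed levels of the smooth muscle, macrophage and regenerating fibre markers overlapped between the groups. P-values measure the spread between libraries, taken as 1 mouse each.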

Additional observations from a re-analysis of the deposited data

Results flagged for a closer look

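Among 34 groups of values examined, 8 held a library whose gap to its nearest neighbour was large for the range of its group. Chance flags about 1 in 20 groups when groups are independent and their values normally spread. Here the level and share of an isoform come from the same counts, so 8 of 34 was not tested against chance. Knockout replicate 4 stood apart with a Myh2 level of 2792 CPM (the next knockout had 1517), a Myh1 level of 786.2 CPM (next 404.2) and a 2310065F04Rik level of 360.7 CPM (next 154.9). Control replicate 7 stood apart with a Myh1 level of 580.2 CPM (next control 242.3), a Myh1 share of 11.48% (next 6.724%) and a summed myosin level of 5053 CPM (next 3604). Knockout replicate 6 stood apart with a Myh3 level of 28.72 CPM (next 6.845) and a Myh3 share of 0.9603% (next 0.1888%).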

How the results depend on the processing

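RLE scaling, library size alone and no low-count filter left the 5 fitted isoforms on the same side of the threshold and in the same direction. Against 240 genes called, DESeq2 called 455 (310 higher, 145 lower), the fit without control replicate 7 and knockout replicate 4 called 403 (255 and 148), the surrogate variable gave 618 (419 and 199), and leaving out single libraries gave 161 (without knockout replicate 2) to 465 (without control replicate 7). The surrogate variable brought Myh2 (log2 fold change 0.61) and Myh1 (0.41) past the threshold. Leaving out that pair of libraries brought past it the shares of Myh2 (11.0), Myh1 (2.38) and Myh4 (-13.5 percentage points) and the ratios to Myh4 of Myh1 (0.77) and Myh2 (0.99). Leaving out 1 library at a time gave log2 fold changes of 0.34 to 0.98 for Myh1, 0.52 to 1.08 for Myh2, -0.48 to 0.65 for Myh3 and -0.10 to 0.39 for Myh7. It gave share differences of 9.06 to 14.3 for Myh2, 1.66 to 3.36 for Myh1, -17.6 to -10.9 for Myh4, -0.061 to 0.079 for Myh7 and -0.070 to 0.083 percentage points for Myh3. The ratios to Myh4 ranged from 0.59 to 1.03 for Myh1 and from 0.82 to 1.24 for Myh2. The difference of medians reversed the share of Myh3 (-0.011). The cause was not tested.

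The replicate numbers share only a number: same-numbered libraries correlated from -0.67 to 0.51 over 7 numbers, and none correlated best with its own number. With the replicate block, 117 genes were called (98 higher, 19 lower) and the Myh3 log2 fold change was -0.13. Ended by the block were the edgeR calls of Atp2a2 and Tnnt3 (adjusted p = 0.0979 each), Pln (0.132), Casq2 (0.122), Mb (0.196), Smtnl1 (0.14), Rcan1 (0.0581), Ckmt2 (0.117), Sdhb (0.0581) and Chrna1 (0.189), while Esrrb, Fabp3 and Ldhb were still called. It left 0 of 18 slow-twitch genes and 2 of 20 oxidative and glycolytic markers higher. The block gave differences of 11.5 percentage points for the Myh2 share (exact sign-flip permutation p = 0.0938) and -14.0 for the Myh4 share (exact p = 0.0781).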

Other observations

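Of 15 genes of myosin folding, assembly and turnover tested by edgeR, 0 passed the adjusted threshold, against 2.17% of all genes. Their median log2 fold change was -0.08. The gene with the smallest p was Trim54, a ubiquitin ligase of the sarcomere, at 172 ± 35.9 CPM in the control and 124 ± 19.3 CPM in the knockout libraries (SD; log2 -0.47 ± 0.15 SE, edgeR adjusted p = 0.137, and 0.026 without control replicate 7). Of 4 other myosin heavy chain genes tested, 0 passed, against the same 2.17%. Myh14, a nonmuscle isoform, had the smallest p among them (1.199 ± 0.53 CPM in controls, 1.602 ± 0.45 CPM in knockouts, edgeR adjusted p = 0.563).

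Of 7 developmental and regenerating fibre genes tested, 1 rose and none fell, against 1.67% higher and 0.497% lower among all genes. Of the 7, 5 lay above 0 and 2 below it, with a median log2 fold change of 0.15 (0.0047 over all genes). Chrna1, the alpha subunit of the muscle acetylcholine receptor, rose from 81.2 ± 11.6 to 134 ± 33.4 CPM (SD, n = 8 and n = 7; log2 0.72 ± 0.16 SE, edgeR adjusted p = 0.0145). The Chrna1 levels of the 2 groups overlapped. Satellite cell markers, summed over the 3 genes in the table, ran from 16.9 to 27.5 CPM in controls and from 12.5 to 27.1 CPM in knockouts. Of the 3, 0 passed, against 2.17% of all genes.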
